A study of Homo sapiens with 3 samples.

Results

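The TGF-beta and BMP signalling genes are 52 human genes chosen by name from the 20056 protein-coding genes of RefSeq. They hold 16 ligands, 6 type I receptors, 4 type II receptors, 2 co-receptors, 2 genes of the latent TGF-beta binding protein (LTBP) family and 4 extracellular antagonists. The others are 5 receptor-regulated SMADs, the common SMAD, 7 further inhibitors and 5 genes known as targets of the pathway. Their peaks were the rows of each annotated peak list whose gene name was one of the 52. MEIS1, a homeodomain transcription factor of the TALE class, was immunoprecipitated from chromatin of 2 derivatives of CWR-22Rv1, a human prostate carcinoma epithelial line that came from a CWR22 xenograft passaged in mice and had relapsed after castration. LV-MEIS1 cells carried exogenous MEIS1 on a lentiviral vector and kept their own HOXB13. HOXB13ko-LV-MEIS1 cells carried the same exogenous MEIS1 after CRISPR knockout of HOXB13, and this line was made from 6 knockout clones that were mixed again before the virus was added. Both lines had been selected with puromycin. The knockout cells already carried an integrated Cas9 construct with puromycin resistance before the MEIS1 virus was added, and the methods mention none for LV-MEIS1 cells. Both lines were compared with 1 input of untreated CWR-22Rv1 DNA that had not been immunoprecipitated. The study's methods speak of input from each line, but the headers of both lists name this same input, so no background or fold enrichment here rests on an input of the derivative itself. Exogenous MEIS1 was present in both lines, so the lists hold no sample without it. Levels of MEIS1, HOXB13 and the pathway's own transcripts were not analysed here. There were 3 immunoprecipitations of LV-MEIS1 cells and 2 of HOXB13ko-LV-MEIS1 cells, but the authors pooled them before calling peaks. Each line therefore had 1 peak list and no replicate error, no test between the lines was possible, and every comparison below describes these 2 lists. The paper's text reports more LV-MEIS1 peaks than the list used here holds. Its counts of HOXB13ko-LV-MEIS1 peaks, and of gene names in each line, differ little from those of the lists. The cause of the difference in LV-MEIS1 peaks was not tested. An LV-MEIS1 peak described below as absent is thus known to be absent only from the list used here.

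In this pathway, dimeric ligands of the TGF-beta, activin and BMP families bring type II and type I receptor kinases together at the cell surface. The type I receptor then phosphorylates receptor-regulated SMADs, which join SMAD4 and act on genes in the nucleus. SMAD2 and SMAD3 serve mainly the TGF-beta and activin ligands, and SMAD1, SMAD5 and SMAD9 the BMP ligands. SMAD6, SMAD7 and the SMURF ubiquitin ligases damp the response, and the ID genes are classical early targets of BMP signals. In prostate epithelium TGF-beta is known as a growth inhibitor. MEIS proteins recognize DNA through the core word TGACA, and HOXB13 prefers sites that contain TTTAT, or ATAAA on the other strand.

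The peak lists are best read beside the DNA at the summits, where the pileup of reads in a peak is highest. The following windows of 61 bases from hg38, plus strand, were centred on the summit. They were chosen to show the promoter peaks found in both lists, the strongest intronic and distal LV-MEIS1 peaks, another ID gene with a peak of lower rank, a feedback inhibitor, the receptor promoter and a peak of the HOXB13ko-LV-MEIS1 list in a repeat. Capitals mark TGACA on either strand, so that TGTCA is the same word read on the other strand.
ID1 promoter, LV-MEIS1 (chr20:31604301-31604361): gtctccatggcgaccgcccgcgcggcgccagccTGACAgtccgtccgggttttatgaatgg
ID1 promoter, HOXB13ko-LV-MEIS1 (chr20:31604296-31604356): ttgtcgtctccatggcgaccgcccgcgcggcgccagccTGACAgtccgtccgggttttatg
TGFB2 promoter, LV-MEIS1 (chr1:218345103-218345163): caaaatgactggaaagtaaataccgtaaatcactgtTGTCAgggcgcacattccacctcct
TGFB2 promoter, HOXB13ko-LV-MEIS1 (chr1:218345137-218345197): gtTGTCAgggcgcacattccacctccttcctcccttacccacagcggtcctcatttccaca
BMPR1B intron 1, LV-MEIS1 (chr4:95025907-95025967): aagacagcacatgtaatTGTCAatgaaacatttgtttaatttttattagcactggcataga
FST distal, LV-MEIS1 (chr5:53339207-53339267): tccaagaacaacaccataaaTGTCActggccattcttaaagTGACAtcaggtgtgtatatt
ID3 downstream, LV-MEIS1 (chr1:23547348-23547408): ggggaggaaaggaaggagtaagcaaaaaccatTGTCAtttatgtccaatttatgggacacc
SMAD7 intron 1, LV-MEIS1 (chr18:48948553-48948613): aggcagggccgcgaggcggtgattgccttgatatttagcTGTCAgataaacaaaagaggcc
TGFBR2 promoter, LV-MEIS1 (chr3:30606429-30606489): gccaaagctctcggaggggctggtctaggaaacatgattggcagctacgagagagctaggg
ACVR2B distal, HOXB13ko-LV-MEIS1 (chr3:38433006-38433066): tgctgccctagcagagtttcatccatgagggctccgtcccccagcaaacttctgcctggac
The ID1 windows of both lines held the same TGACA near their centre, and the TGFB2 windows shared one TGTCA, which lay close to the LV-MEIS1 summit and at the edge of the window in HOXB13ko-LV-MEIS1 cells. The FST window held the word on both strands. The TGFBR2 and ACVR2B windows held none.

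A MEIS1 peak was annotated to 11 of the 52 genes in LV-MEIS1 cells, to 5 in HOXB13ko-LV-MEIS1 cells and to 2, ID1 and TGFB2, in both. A total of 14 genes had a peak in at least 1 list. In LV-MEIS1 cells the 11 genes were 21.2% of the 52, beside 15.1% of all protein-coding genes. In HOXB13ko-LV-MEIS1 cells the 5 genes were 9.62%, beside 5.79%, and the 2 genes in both lists were 3.85%, beside 2.28%. When only peaks within 10 kb of the transcription start site were counted, 6 genes (11.5%, beside 8.42%) remained in LV-MEIS1 cells and 4 genes (7.69%, beside 3.39%) in HOXB13ko-LV-MEIS1 cells. Each share of the 52 rests on few genes, and no test was made of it.

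The 11 genes in LV-MEIS1 cells held 16 peaks out of 5968, and the 5 genes in HOXB13ko-LV-MEIS1 cells held 5 peaks out of 2047. By role, LV-MEIS1 peaks lay at 2 of 16 ligands, 1 of 6 type I receptors, 1 of 4 type II receptors and 1 of 4 extracellular antagonists. They also lay at 1 of 5 receptor-regulated SMADs, 3 of the 7 further inhibitors and 2 of 5 targets. HOXB13ko-LV-MEIS1 peaks lay at 2 ligands, 1 type II receptor, 1 of 2 LTBP genes and 1 target. SMAD4, the common SMAD, and both co-receptors had no peak of either list.

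**Figure D1:**
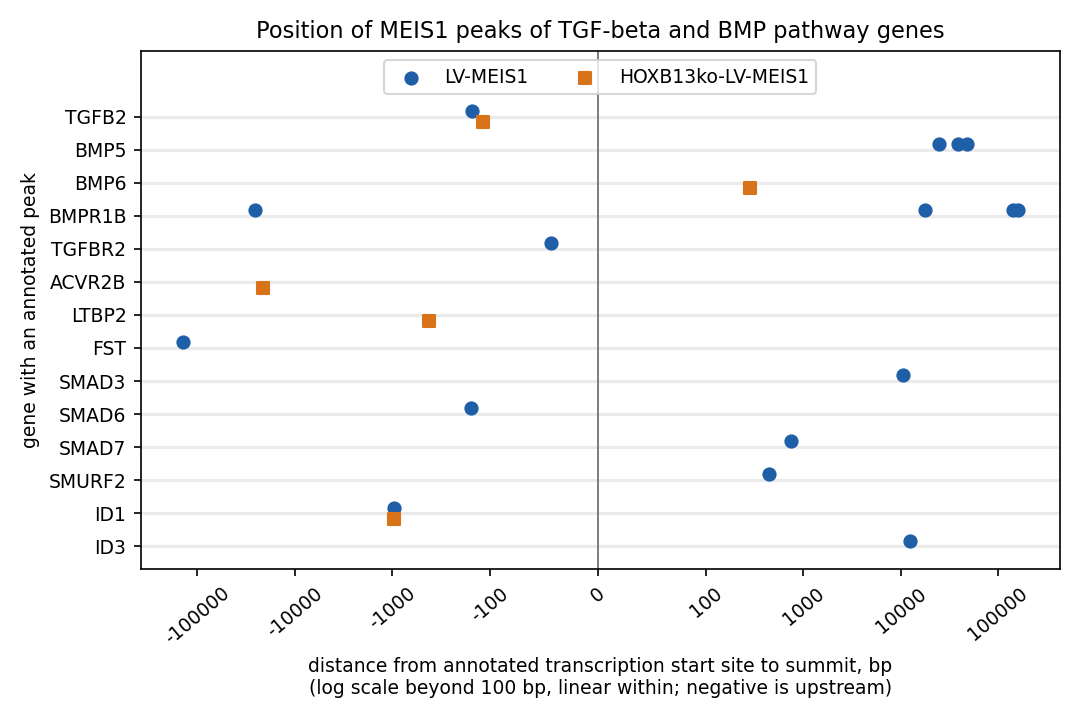
Signed distance in bp from the annotated transcription start site to the summit of each peak (horizontal, logarithmic beyond 100 bp and linear within) for the 14 genes with a peak (vertical). Circles are the 16 LV-MEIS1 peaks and squares the 5 HOXB13ko-LV-MEIS1 peaks; 6 circles and 4 squares lie within 1 kb of a start site, and only ID1 and TGFB2 have both.

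For each peak 3 values are given, of which the pileup and the fold enrichment are the authors' own. The pileup is the number of extended reads over the summit after the pool had been scaled down to the depth of the input. The local background is the pileup expected there from the input. The fold enrichment is the ratio of the pileup to the background after 1 is added to each. The background was calculated back from the pileup and the fold enrichment. Its lowest value in both lists was 2.9, which several of these peaks share, ID1 among them. At this shared lowest value the background may not describe the input at the gene itself. The number of reads behind a pileup was recovered by dividing it by the scale factor of the list, which was 0.193 for LV-MEIS1 and 0.370 for HOXB13ko-LV-MEIS1, and its exact 95% Poisson interval is given in brackets. These intervals cover counting error only. Fold enrichment was ranked among all peaks of the same list. A percentile of 50 is thus the median peak of that list.

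Among the ligands, TGFB2 had a promoter peak in both lines. TGFB2 encodes 1 of the TGF-beta isoforms. In LV-MEIS1 cells the peak lay on chromosome 1 from 218344970 to 218345450, with its summit 151 bp upstream of the start site, a pileup of 42.9 from 222 reads (194 to 253) over a background of 7.0, a fold enrichment of 5.49 (q-value 4.07e-16). In HOXB13ko-LV-MEIS1 cells the summit lay 117 bp upstream, with a pileup of 28.8 from 78 reads (61.7 to 97.3), a fold enrichment of 3.73 (q-value 3.83e-06). Both were weak for their lists, at the 33.0 and the 9.45 percentile.

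BMP5, a ligand of the BMP family, had 3 LV-MEIS1 peaks, all in its intron 1. They lay 24888, 38894 and 47754 bp downstream of the start site and had fold enrichments of 5.83, 3.62 and 6.83. The middle peak was at the 2.71 percentile of the list, with 96 reads (77.8 to 117) and a q-value of 3.77e-04, the weakest of the 16 peaks. No HOXB13ko-LV-MEIS1 peak was annotated to BMP5, and the nearest one lay 117998 bp from its start. BMP6 showed the reverse pattern. Its only peak was in HOXB13ko-LV-MEIS1 cells, in the 5′ UTR in exon 1, 281 bp downstream of the start site. It had 50 reads (37.1 to 65.9), a fold enrichment of 4.43 (q-value 2.90e-05). The nearest LV-MEIS1 peak lay 164496 bp away, at DSP, a gene for a desmosomal protein.

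Among the receptors, BMPR1B stood out by the number of its peaks. It encodes a type I receptor kinase for BMP ligands and had 4 LV-MEIS1 peaks on chromosome 4. The strongest, from 95025761 to 95026122 in intron 1, lay 25742 bp upstream of the start site that HOMER used, with a pileup of 50.4 from 261 reads (230 to 295), a fold enrichment of 12.9 (q-value 1.08e-38). It ranked 142 of 5968. A peak in intron 2, 17785 bp downstream of that start, had a fold enrichment of 7.04. The other peaks, 140402 and 159463 bp downstream with fold enrichments of 7.12 and 8.78, lay beyond the end of BMPR1B at 95158448 and inside introns of the neighbouring gene UNC5C, which encodes a netrin receptor. They carry the name BMPR1B because its start site was the nearest one. None of the 4 overlapped a HOXB13ko-LV-MEIS1 peak, and the nearest such summit to any of them lay 298655 bp away, also at UNC5C.

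TGFBR2 and ACVR2B, both type II receptors, each had a peak in 1 list only. TGFBR2 binds TGF-beta itself. Its LV-MEIS1 peak on chromosome 3 from 30606340 to 30606559 had its summit 43 bp upstream of the start site, with a pileup of 19.7 from 102 reads (83.2 to 124) over a background of 4.20. The fold enrichment was 3.98 and the q-value 4.59e-05, which placed it at the 5.24 percentile of the list. ACVR2B, a receptor for activins, had a HOXB13ko-LV-MEIS1 peak 21263 bp upstream of its start site, inside a THE1C-int element of the ERVL-MaLR class of repeats. That peak had 83 reads (66.1 to 103), a fold enrichment of 8.13 (q-value 7.92e-17), and was at the 83.1 percentile.

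The nearest peaks were also located for TGFBR1, TGFBR2 and TGFBR3, whatever gene they were annotated to, with distances from the canonical GENCODE start. For TGFBR1, the type I receptor for TGF-beta on chromosome 9, the nearest LV-MEIS1 summit lay 829511 bp downstream in intron 3 of STX17, which encodes a syntaxin, with a fold enrichment of 3.77. The nearest HOXB13ko-LV-MEIS1 summit lay 2326917 bp upstream at the promoter of ZNF510, a zinc finger gene, with a fold enrichment of 6.23. For TGFBR2 the promoter peak lay 142 bp upstream of the canonical start, and the nearest HOXB13ko-LV-MEIS1 summit 1000045 bp downstream. That summit was classed as intronic and annotated to STT3B, which encodes an oligosaccharyltransferase subunit. For TGFBR3, the co-receptor betaglycan on chromosome 1, the nearest LV-MEIS1 summit lay 438882 bp upstream, with a fold enrichment of 7.34. It was classed as intronic, lay in a MIRb repeat of the SINE class and was annotated to GLMN. Such a name is that of the nearest start site, which need not belong to the gene whose intron holds the peak. The nearest HOXB13ko-LV-MEIS1 summit to TGFBR3 lay 199752 bp upstream, with a fold enrichment of 7.37. It was classed as intronic, lay in an LTR14B element and was annotated to BTBD8. TGFBR3 was thus the only one of these 3 receptors with the nearer peak in HOXB13ko-LV-MEIS1 cells, and neither TGFBR1 nor TGFBR3 had a peak of either list within 100 kb of its start. Since the paper reports more LV-MEIS1 peaks than the list used here holds, these absences and distances describe this list only.

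The study's reagent list names a primer pair for genomic TGFBR1, which was looked up in hg38 after the peak values had been seen.
forward primer: ccagctagagtgcgggatg
reverse primer: tcccacaagcgcacatttct
Both primers matched the genome exactly at 1 place each, and both places were on chromosome 1. They span 87 bp, chr1:91559523-91559609, and neither primer matched on chromosome 9, where TGFBR1 lies. The span overlaps no annotated gene. It starts 120734 bp beyond the 3′ end of TGFBR3, which is read from the minus strand, and 33759 bp from CDC7, the nearest protein-coding gene. The study's methods name TGFBR3, and not TGFBR1, among the genes assayed by qPCR of immunoprecipitated chromatin. Its results text names the TGFBR1 region, and its figure legend TGFBR3, so the receptor that the label was meant for is uncertain. For the receptor locus the paper reports MEIS1 binding by sequencing and by qPCR, with less binding after HOXB13 deletion. Its sequencing tracks and qPCR values were not analysed here, so the peak lists alone do not settle that report. The paper also reports more TGFBR3 mRNA in LV-MEIS1 cells, and more of its protein, a rise it did not see without HOXB13. Those RNA and protein values were not analysed here either. The span holds no TGACA, and 0 peaks of either list lay within 100 kb of it. The nearest LV-MEIS1 peak, annotated to GLMN, was 765220 bp away and the nearest HOXB13ko-LV-MEIS1 peak, annotated to HFM1, 172041 bp.

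Outside the cell, LTBP2 and FST had peaks. LTBP2 encodes a matrix protein of the LTBP family. Its only peak was a promoter peak of HOXB13ko-LV-MEIS1 cells, 422 bp upstream of the start site, with 60 reads (45.8 to 77.2), a fold enrichment of 4.64 (q-value 6.46e-07). FST encodes follistatin, which binds activins and keeps them from their receptors. Its LV-MEIS1 peak was intergenic, 141197 bp upstream, with 178 reads (153 to 206), a fold enrichment of 8.72 (q-value 9.00e-21), at the 82.9 percentile. The nearest HOXB13ko-LV-MEIS1 summit to this peak lay 3860166 bp away. The other antagonists, NOG, GREM1 and CHRD, had no annotated peak.

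Inside the cell, the peaks lay at SMAD3 and at 3 inhibitors, SMAD6, SMAD7 and SMURF2, and all 4 peaks were in the LV-MEIS1 list. SMAD3, which carries the TGF-beta signal to DNA, had an intronic peak of 87 reads (69.7 to 107) with a fold enrichment of 4.57 (q-value 2.95e-05). It lay 10491 bp from the start of a shorter transcript but 82910 bp from the canonical start. SMAD6, which inhibits BMP receptors, had a promoter peak 154 bp upstream with 132 reads (110 to 157), a fold enrichment of 5.41 (q-value 6.31e-10). SMAD7, which inhibits receptors of both branches, had a peak in a CpG island in intron 1, 750 bp downstream, with 131 reads (110 to 155), a fold enrichment of 5.26 (q-value 1.07e-09). SMURF2, a ubiquitin ligase recruited by SMAD7 to receptors, had a peak in exon 1 of 19, 439 bp downstream, with 185 reads (159 to 214), a fold enrichment of 4.71 (q-value 1.94e-11). All 4 were below the median of the list in fold enrichment, at percentiles of 12.5 for SMAD3, 30.6 for SMAD6, 27.1 for SMAD7 and 15.1 for SMURF2. The nearest HOXB13ko-LV-MEIS1 summits to these peaks lay between 223701 bp (SMURF2) and 1351859 bp (SMAD6) away. SMURF1, SKI, SKIL and BAMBI, the remaining inhibitors of this group, had no annotated peak of either list.

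Of the 5 target genes, ID1 and ID3 had peaks. Both encode proteins that bind basic helix-loop-helix factors and keep them off DNA. ID1 had a promoter peak in each list. In LV-MEIS1 cells it lay on chromosome 20 from 31604171 to 31604506, with its summit 952 bp upstream of the start site, a pileup of 49.8 from 258 reads (227 to 291) over a background of 2.90, a fold enrichment of 13.0 (q-value 3.26e-38). It ranked 129 of 5968, the highest of the 16 peaks. In HOXB13ko-LV-MEIS1 cells the summit lay 957 bp upstream, with a pileup of 27.4 from 74 reads (58.1 to 92.9), a fold enrichment of 7.28, a q-value of 6.27e-14 and the 75.6 percentile. ID3 had an intergenic LV-MEIS1 peak 12416 bp downstream of its start site, with 109 reads (89.5 to 131), a fold enrichment of 5.66 (q-value 3.49e-09). ID2, ID4 and TGFBI, which encodes a matrix protein induced by TGF-beta, had no annotated peak.

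**Figure D2:**
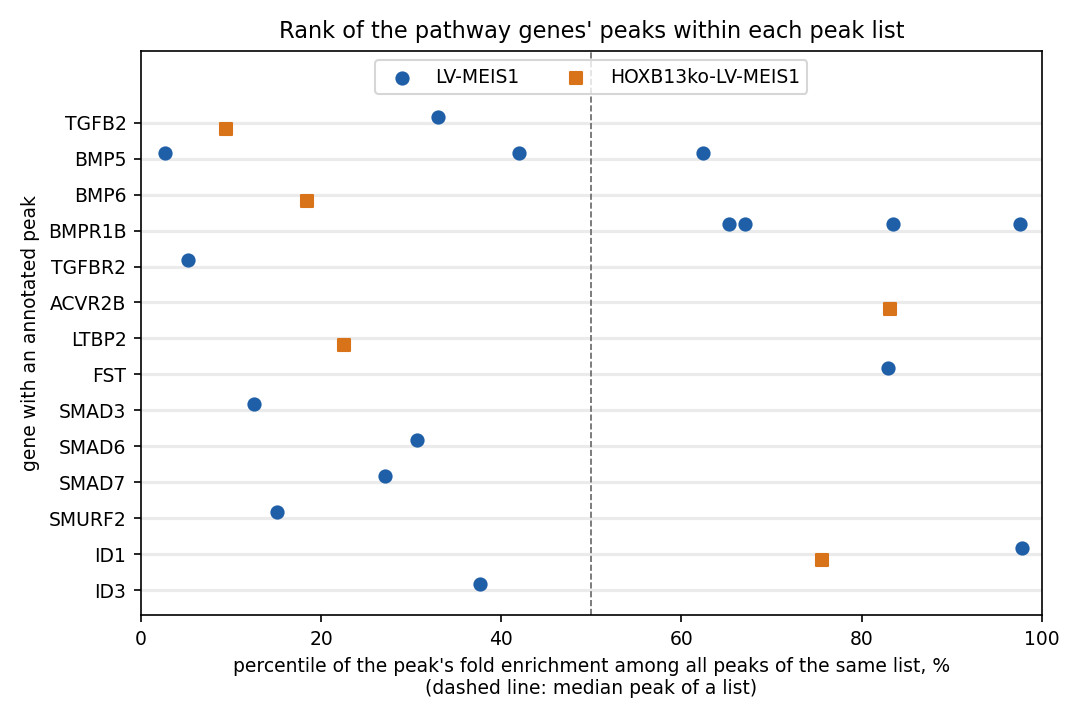
Percentile of each peak's fold enrichment among all peaks of its own list (horizontal, in %) for the 14 genes with a peak (vertical), with circles for LV-MEIS1, squares for HOXB13ko-LV-MEIS1 and a dashed line at the median peak. ID1 (97.8) and BMPR1B (97.6) reach the top of the LV-MEIS1 list, whereas TGFBR2 (5.24) and a BMP5 peak (2.71) are near its lower end.

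Ranked this way, the 16 LV-MEIS1 peaks spread over nearly the whole of their list, from the 2.71 to the 97.8 percentile. The 5 HOXB13ko-LV-MEIS1 peaks fell between the 9.45 and the 83.1 percentile, and 3 of them were at or below 22.5. Median fold enrichment was 5.75 (3.62 to 13.0) over the 16 LV-MEIS1 peaks, beside 6.17 for the list, and 7 of the 16 were above the median of the list. Over the 5 HOXB13ko-LV-MEIS1 peaks it was 4.64 (3.73 to 8.13), beside 5.85, and 2 were above. Of the 6 LV-MEIS1 peaks within 1 kb of a start site, ID1 alone was above the median of the list. All 4 BMPR1B peaks and the FST peak were above it.

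The peaks of ID1 and TGFB2 were the only ones that overlapped between the lists. They were 12.5% of the 16 LV-MEIS1 peaks, beside 7.66% of the whole list, and 40% of the 5 HOXB13ko-LV-MEIS1 peaks, beside 22.3%. The ID1 peaks overlapped by 245 bp with summits 5 bp apart, and the TGFB2 peaks by 239 bp with summits 34 bp apart. The scaled pileup in HOXB13ko-LV-MEIS1 cells was 0.549 times that in LV-MEIS1 cells at ID1 (95% interval 0.418 to 0.713, from read counts alone) and 0.673 times at TGFB2 (0.513 to 0.874). Over all 298 pairs of peaks with summits within 50 bp the median ratio was 0.623, which both intervals include. No replicate error stands behind these ratios, and a difference in the share of reads in peaks between the pools cannot be told apart from a difference at the gene.

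A peak missing from a list was taken to mean that the threshold was not passed there. For each of the other 14 LV-MEIS1 peaks, the summit pileup that reaches the weakest p-value seen in the HOXB13ko-LV-MEIS1 list was therefore computed. It was taken from the local background of the peak, with the same background assumed in both lists. Among the 298 pairs with summits within 50 bp the backgrounds lay within 10% of each other in 90.9%. Both lists used the same input, so this closeness follows from the design and is no separate check. Pileups of 13 to 22 reached that p-value, and the LV-MEIS1 pileups were 1.09 to 3.60 times those values with a median of 1.72. Reaching it at the summit may not be enough for a call, since the shortest peak was 200 bp and the lowest HOXB13ko-LV-MEIS1 pileup 14.8. The values below are thus rough guides and not upper limits. Under the same assumption, the pileup needed was 27.8% of the LV-MEIS1 value at the intron 1 peak of BMPR1B and 40.7% at FST. It was much higher at SMAD6 (62.7%), SMAD7 (63.2%), SMURF2 (61.6%), ID3 (61.7%), SMAD3 (77.3%), TGFBR2 (81.2%) and the middle BMP5 peak (91.7%). At a stricter threshold, passed by 95% of that list, it exceeded the LV-MEIS1 pileup at TGFBR2 (20 against 19.7) and the middle BMP5 peak (20 against 18.5). The median ratio of 0.623 comes only from pairs that passed in both lists, so it need not hold at peaks absent from 1 of them. If each LV-MEIS1 pileup is multiplied by it, 9 of the 14 still exceed the pileup needed and 5 do not. No conclusion about a loss at the 9 can be drawn from this. In the other direction, the pileup needed in the LV-MEIS1 list was 42.4% of the HOXB13ko-LV-MEIS1 value at ACVR2B, 67.6% at LTBP2 and 75.7% at BMP6.

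**Figure D3:**
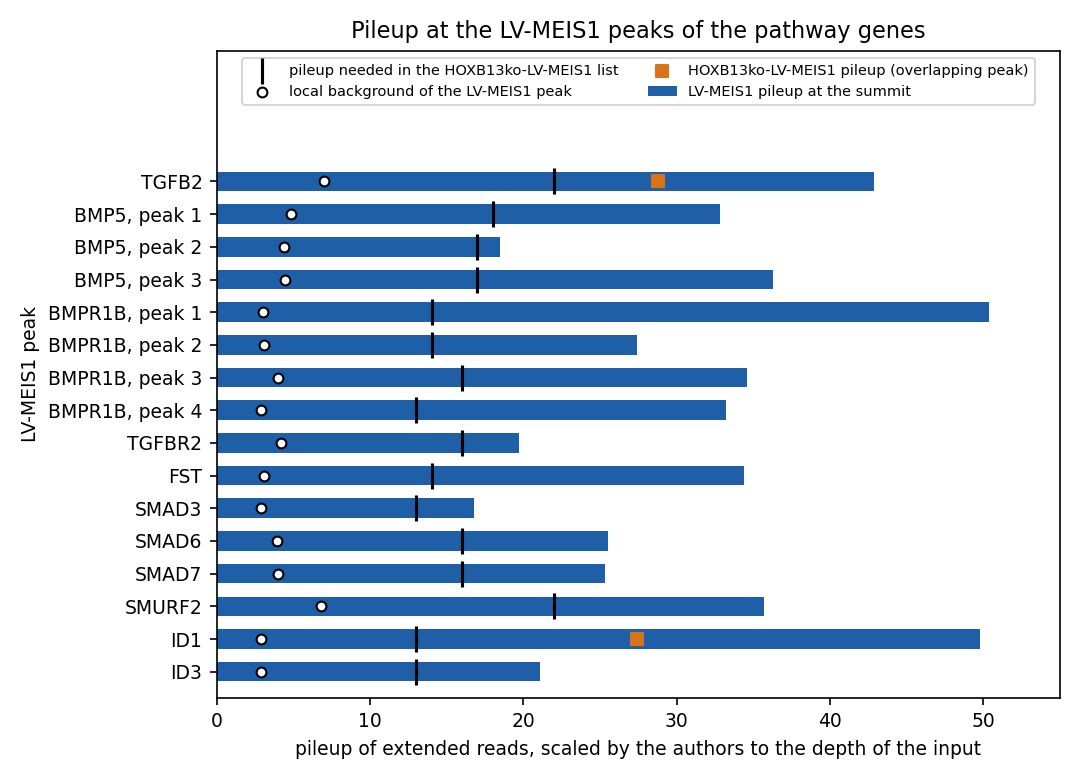
Scaled pileup (horizontal, in extended reads at the depth of the input) of the 16 LV-MEIS1 peaks (bars), their local background (open circles), the summit pileup that reaches the weakest p-value of the HOXB13ko-LV-MEIS1 list (ticks) and the measured HOXB13ko-LV-MEIS1 pileup of the overlapping peaks (squares). Peaks of 1 gene are numbered in order of their signed distance to the start site; squares are at ID1 (27.4) and TGFB2 (28.8), and the tick lies close to the end of the bar at the middle BMP5 peak and at TGFBR2.

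By annotation, the 16 LV-MEIS1 peaks were 9 intronic, 4 promoter, 2 intergenic and 1 exonic. Introns thus held 56.2% of them, beside 38.0% of the whole list, promoters 25.0% beside 20.2%, and intergenic sequence 12.5% beside 37.0%. However, 7 of the 9 intronic peaks belonged to BMPR1B and BMP5, whose peaks are not independent of each other. The 5 HOXB13ko-LV-MEIS1 peaks were 3 promoter peaks, 1 in a 5′ UTR and 1 intergenic. No LV-MEIS1 peak of the 52 genes lay in an annotated repeat, where 19.5% of the whole list lay, and 1 of the 5 HOXB13ko-LV-MEIS1 peaks did, beside 40.5%. Distance to the start site had a median of 15100 bp (43 to 159463) in LV-MEIS1 cells, beside 23121 bp for all peaks, with 6 peaks within 1 kb and 3 beyond 100 kb. In HOXB13ko-LV-MEIS1 cells it was 422 bp (117 to 21263), beside 10517 bp, with 4 of 5 peaks within 1 kb. With 1 value for each gene, that of its nearest peak, the median in LV-MEIS1 cells was 952 bp, since BMPR1B and BMP5 then counted once.

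The word TGACA, searched on both strands within 50 bp of the summit, was present at 11 of the 16 LV-MEIS1 peaks (68.8%). It was present at 56.1% of all LV-MEIS1 peaks, and at 18.9% of flanking windows of equal width, 450 to 550 bp from the summit. The peaks without it were those of SMAD6, SMAD3 and TGFBR2 and 2 of the 3 BMP5 peaks. In HOXB13ko-LV-MEIS1 cells the word was present at 2 of 5 peaks, ID1 and TGFB2, beside 16.8% of the whole list and 14.4% of its flanking windows. The longer word TGACAG, which contains TGACA, was present at SMURF2, SMAD7 and ID1 in LV-MEIS1 cells, beside 30.4% of the list. Within 1 kb of a start site 4 of 6 LV-MEIS1 peaks had TGACA, and farther away 7 of 10 did. ATAAA, on either strand, was present at 8 of 16 LV-MEIS1 peaks, beside 45.8% of the list and 32.9% of its flanks, and at 1 of 5 HOXB13ko-LV-MEIS1 peaks, that of ID1, beside 13.0% and 24.1%. A composite in which TTTAT starts 2 bases after TGACA was found at 0 of 16 and 0 of 5 peaks, and at 0.922% and 0.147% of the whole lists. Other orders and spacings were not counted. The windows printed above show ATAAA or TTTAT directly beside TGTCA at ID3 and FST, and 1 base from it at SMAD7. A match is a description of the letters in these windows only.

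All 52 genes can be placed by their nearest peak of either list. The median distance from the canonical start to the nearest LV-MEIS1 summit was 152944 bp (54 to 2255000), beside 147590 bp for 20033 protein-coding genes, and 8 genes (15.4%, beside 11.2% of all) had a summit within 10 kb and 20 (38.5%, beside 40.6%) within 100 kb. The nearest HOXB13ko-LV-MEIS1 summit lay at a median of 994242 bp (169 to 13601855), beside 461338 bp, with 4 genes (7.69%, beside 4.69%) within 10 kb and 6 (11.5%, beside 20.5%) within 100 kb. The nearer peak was in the LV-MEIS1 list for 44 genes and in the HOXB13ko-LV-MEIS1 list for 8. The LV-MEIS1 list is longer, however, and when it was shortened to its 2047 peaks of highest fold enrichment (an alternative chosen after the data had been seen) the LV-MEIS1 median became 506270 bp, beside 445985 bp for all genes. Within 100 kb were then 7 genes (13.5%, beside 18.1%). In that shortened list 3 of the 52 genes (5.77%), BMPR1B, FST and ID1, had an annotated peak, beside 6.03% of all protein-coding genes. At this length the share of the 52 was thus close to the background and not above it as in the full list.

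**Figure D4:**
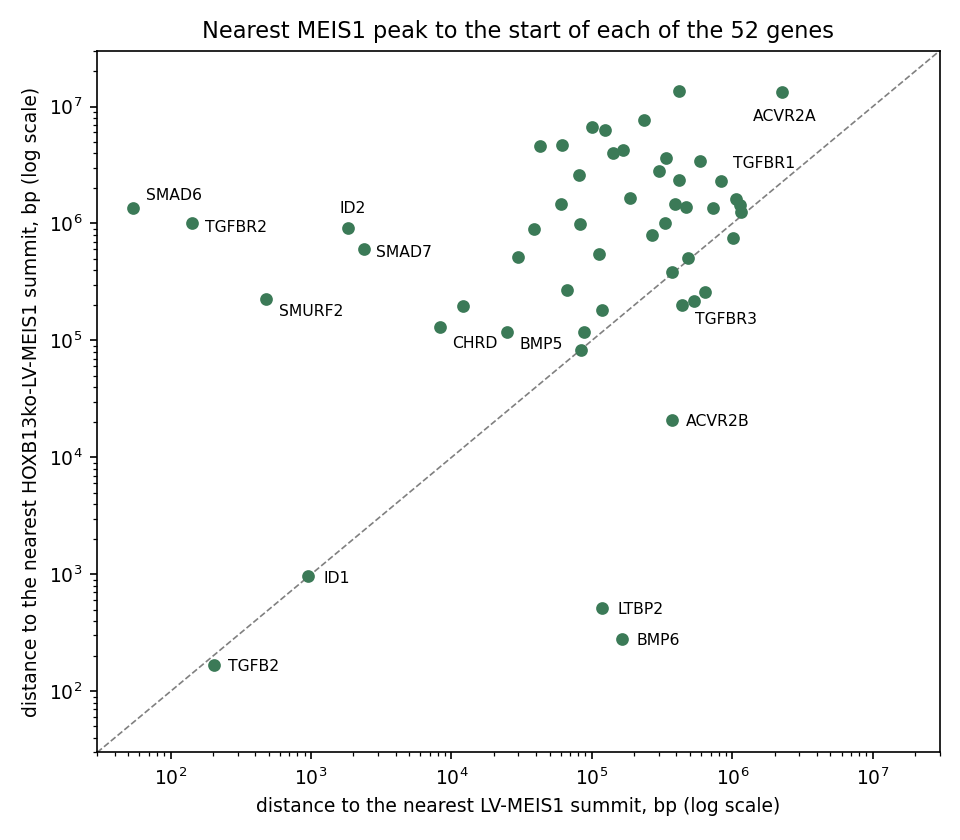
Distance in bp from the canonical start of each of the 52 genes to the nearest LV-MEIS1 summit (horizontal) and the nearest HOXB13ko-LV-MEIS1 summit (vertical), both axes logarithmic, with a dashed line where they are equal. Points above the line (44 genes) have the nearer peak in LV-MEIS1 cells; ID1 and TGFB2 lie near the line at short distances, TGFBR2 far above it and TGFBR3 below it.

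Among the 38 genes without an annotated peak, the 5 with the nearest peak of either list were ID2, CHRD, GDF5, SKI and SMAD5, in each case with a peak of LV-MEIS1 cells. The peak near ID2 lay 1821 bp upstream of the canonical start and was annotated to the antisense gene ID2-AS1, with 88 reads, a fold enrichment of 4.62 (q-value 2.95e-05). At CHRD, which encodes the BMP antagonist chordin, it lay 8250 bp upstream at the transcript end of THPO, the thrombopoietin gene, with a fold enrichment of 7.35. At GDF5, a BMP-type ligand of joint development, it lay 29532 bp upstream in an intron of CEP250, with a fold enrichment of 9.63. At SKI, a repressor of SMAD complexes, it lay 38683 bp upstream at a transcript end of FAAP20, with a fold enrichment of 7.88. At SMAD5, which carries BMP signals, it lay 42872 bp upstream and was annotated to VTRNA2-1, with a fold enrichment of 5.42. The nearest HOXB13ko-LV-MEIS1 summits to these 5 starts lay between 131143 bp (CHRD) and 4578468 bp (SMAD5) away. When each peak was given to its nearest protein-coding start in GENCODE, 16 of the 52 genes (30.8%) had an LV-MEIS1 peak, beside 18.9% of all 20007 protein-coding genes, with BAMBI, ID2, ID4, INHBA and SMAD5 added. Some of these assignments were distant, since the nearest LV-MEIS1 summit lay 124604 bp from BAMBI, 371390 bp from ID4 and 390570 bp from INHBA. A HOXB13ko-LV-MEIS1 peak was then at 7 genes (13.5%), beside 7.66% of all, with BMP5 and ID4 added. The nearest HOXB13ko-LV-MEIS1 summits to these genes lay 117998 bp (BMP5) and 382229 bp (ID4) away.

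A wider list of 53 other genes of the same pathway was counted in the same way. LV-MEIS1 peaks were annotated to 5 of them (9.43%), below the 15.1% of all protein-coding genes, and HOXB13ko-LV-MEIS1 peaks to 3 (5.66%), close to the 5.79% of all. In both lists were 0 of them, beside 2.28%. The 8 genes are named here after their values were seen. In LV-MEIS1 cells they were CCN2, LTBP3, NEDD4L, PMEPA1 and SOSTDC1, of which PMEPA1, a TGF-beta induced gene whose product limits SMAD signals, had 6 intergenic peaks between 26626 and 61834 bp upstream. In HOXB13ko-LV-MEIS1 cells they were BMPER, HJV and LEMD3.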

How the data were processed

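MEIS1 ChIP-seq was measured in LV-MEIS1 and HOXB13ko-LV-MEIS1 cells, with 1 input. Per the submitters' notes and the study's methods, reads were processed with CASAVA 1.8, Trimmomatic 0.38, Picard 2.18.10 (duplicates removed), Bowtie2 and SAMtools on hg38, immunoprecipitations were pooled, peaks were called with MACS2 (2.1.2 in the file headers, q-value 0.01, reads extended to 200 bp) and annotated with HOMER 4.9.1. The pools held 202428594 and 105763683 tags and the input 39102495, so the smaller input limits the precision of both backgrounds.

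The signal deposited for each peak is its summit pileup, scaled by the authors to the input, and the deposited ratio is its fold enrichment over local background. The p-value and q-value were deposited as −log10 values. Their headings were damaged, so these columns were identified by their place. The authors' distances to transcription start sites were deposited in bp. As a check, pileup divided by the scale factor was within 0.03 of a whole read in 100% of peaks, and −log10 p recomputed under a Poisson model was within 0.05 of the deposited value in 99.2% and 99.7%.

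Members were matched by gene name, and overlap meant at least 1 bp. Gene starts, canonical transcripts and bodies came from GENCODE release 44 and the protein-coding gene names from RefSeq, both on GRCh38. Named genes are all members with a peak, TGFBR1, TGFBR2 and TGFBR3, the 5 members without a peak that had the nearest one, the genes at the nearest peaks of these receptors, and wider-list genes with peaks in both lists, of which there were 0. Other named genes were chosen after their values were seen. The members and lists were chosen with earlier results of these data known. The study's methods describe the immunoprecipitations of LV-MEIS1 cells as biological replicates, but they were pooled, and no test between lines was run. The distance, overlap, threshold and word functions were tested on simulated data. Scripts ran under Python 3.11.15. Tables were handled with pandas 2.3.3, intervals with scipy 1.17.1 and numpy 2.4.6, sequences with pysam 0.24.0 and figures with matplotlib 3.10.9.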

Additional observations from a re-analysis of the deposited data

How the results depend on the processing

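Counts of genes and peaks were recomputed with a q-value of at most 1e-05, a fold enrichment of at least 5, distance limits, main chromosomes only, peaks outside repeats, other gene assignment, a shortened LV-MEIS1 list and other definitions of overlap, and 29 of 40 such counts stayed within 1.5 times the original. Of 13 further values, for distances (nearest peak of each gene, gene bodies, minimum fold enrichment), words (wider window, TGACAG) and the pileup needed (stricter threshold), 9 did. A minimum fold enrichment of 5 left 2 genes and 2 peaks in HOXB13ko-LV-MEIS1 cells, 1 gene in both lists and a median distance of 11110 bp in HOXB13ko-LV-MEIS1 cells. A limit of 10 kb left 6 genes and 6 peaks in LV-MEIS1 cells. Assignment to the nearest protein-coding start gave 4 genes in both lists, 25 LV-MEIS1 peaks and 8 HOXB13ko-LV-MEIS1 peaks. As many LV-MEIS1 peaks as the HOXB13ko-LV-MEIS1 list holds, an alternative chosen after seeing the data, gave 3 genes, 5 peaks and 1 gene in both lists. The nearest peak of each gene alone gave a median distance of 952 bp in LV-MEIS1 cells. TGACAG was present at 3 LV-MEIS1 peaks and 1 HOXB13ko-LV-MEIS1 peak. The minimum fold enrichment, the limit of 10 kb and the shortened list let fewer peaks in by construction, and the nearest peak alone gives 1 value a gene. TGACAG contains TGACA, so its counts could only be equal or lower. For the other changes, those under assignment to the nearest protein-coding start, the cause was not tested. No paired analysis was possible because the immunoprecipitations of each line were pooled before peaks were called. For the same reason no immunoprecipitation could be left out in turn. A depth of 105763683 tags against 202428594 and the small counts limit what can be said of weak peaks such as those of TGFBR2 and SMAD3.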
